A study of Rattus norvegicus with 30 samples.

Results

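The genes described here code for titin, for the cardiac troponins and for other proteins of the thin filament and the myosin head of the heart's sarcomere. They were listed by name as Ttn (titin), Tnnt2, Tnni3 and Tnnc1 (cardiac troponins T, I and C), Actc1 (cardiac alpha-actin), Tpm1 (alpha-tropomyosin), Myl2 and Myl3 (the regulatory and essential myosin light chains of the ventricle). Every probe set whose only gene symbol was one of these names was taken, which gave 14 probe sets for 7 of the 8 genes, of 7006 probe sets with 1 symbol for 4736 genes and 8799 probe sets in all. Tpm1 had 5, Myl2 had 3, Tnni3 had 2, and Ttn, Tnnt2, Actc1 and Myl3 had 1 each, while Tnnc1 was not analysed here. Of the 14, 13 entered the tests and 1, for Tpm1, lay below the filter on low signal. A further 4 probe sets carried the symbols Acta2 and Actc1 together and are described beside Actc1, not counted with it.

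Total RNA of the left ventricle of rat hearts was read on 30 Affymetrix expression arrays, 5 to each of 6 protocols, and the labels call the 5 of a protocol biological replicates. The protocols were control (CTL), ischemia (ISCH), ischemic preconditioning (IPC), preconditioning with an anesthetic (APC), and the trigger of each kind of preconditioning (IPC_TRI and APC_TRI). The labels name neither the anesthetic nor the strain, age, dose or times, and mention no deleted or added gene. They do not say whether IPC and APC hearts also went through a later test ischemia, or what the trigger hearts went without, so the step that separates any 2 groups is known only by these names. Preconditioning is a brief stimulus that makes the heart withstand a later ischemia better, and the labels' keywords give the aim as a comparison of it with ischemia and reperfusion.

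The sarcomere is the contractile unit of heart muscle, in which myosin heads of the thick filament pull on actin. Tropomyosin lies along actin and covers the sites where myosin binds, and calcium bound to troponin C moves it aside through troponins I and T. Titin spans from the edge of the sarcomere to its middle and acts as a spring, and the light chains brace the lever arm of the myosin head. In heart tissue these messages are among the most abundant of all, and in tissue RNA fewer myocytes and less RNA per myocyte cannot be told apart.

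Stretches before the listed gene starts are shown for titin, whose signal was the lowest in APC, and for cardiac actin and the essential light chain. The deposited log2 signals of the last 2 correlated at r = 0.92 over the 30 arrays, and at 0.64 after normalization. That was not particular to this pair, since Actc1 correlated as highly with Tpm1 (0.92) and Tnni3 (0.92) as deposited. The sequences are from RefSeq on rat build GRCr8, run 5′ to 3′ on the strand of the gene, and end where the annotated gene begins. Every position below is counted back from the listed start, which is the end of a 250-base window. For Ttn and Myl3 the listed start lies inside the annotated gene, so their stretches stop short of it. Capitals mark matches, on either strand, to 3 motifs: TATAA or TATAT, the CArG box (bound by serum response factor) and the MEF2 box (bound by myocyte enhancer factors).
Ttn, chr3:82332131-82332360, minus strand: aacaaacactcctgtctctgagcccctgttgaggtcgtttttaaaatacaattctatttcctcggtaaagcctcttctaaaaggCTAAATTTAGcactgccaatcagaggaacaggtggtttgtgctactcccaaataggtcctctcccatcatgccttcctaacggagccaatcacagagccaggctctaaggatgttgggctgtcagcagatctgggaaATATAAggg
Actc1, chr3:121271828-121272077, minus strand: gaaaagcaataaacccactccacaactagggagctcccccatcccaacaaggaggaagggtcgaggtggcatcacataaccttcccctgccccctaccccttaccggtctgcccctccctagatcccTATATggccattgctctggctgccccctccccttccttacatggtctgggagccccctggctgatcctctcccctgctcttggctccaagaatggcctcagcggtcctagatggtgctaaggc
Myl3, chr8:119616844-119617076, plus strand: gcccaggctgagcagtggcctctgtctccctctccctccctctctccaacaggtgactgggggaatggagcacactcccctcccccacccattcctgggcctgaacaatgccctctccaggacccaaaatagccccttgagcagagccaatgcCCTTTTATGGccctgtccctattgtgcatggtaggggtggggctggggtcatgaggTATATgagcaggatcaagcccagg
The MEF2 box of Ttn lies 166 to 157 bases before the listed start and reads the same on both strands, and no TATAA or TATAT match overlaps it. A MEF2 box was found in 2.96% of 33469 promoters of 250 bases, slightly longer than the 230 and 233 shown for Ttn and Myl3. The CArG box of Myl3 lies 97 to 88 bases before the listed start, and 1.5% of promoters held one. A TATAA or TATAT match, held by 31.2% of promoters, lies 28 to 24 bases before the listed start of Ttn, 41 to 37 before that of Myl3 and 123 to 119 before that of Actc1. These matches are letters in a window and say nothing about whether a factor was bound in these hearts.

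The deposited values were signal intensities that had been scaled to a common mean on each array. Of the 14 probe sets, 11 were among the 100 brightest by mean over all arrays, and the other 3 were Ttn and the Tpm1 probe sets M60666_s_at and rc_AI144767_s_at. Ttn had a median intensity of 144.5 over the 30 arrays and a range of 29.1 to 439.7. Levels of different probe sets depend on their probes and are not compared here as amounts of RNA. The tests were run with limma on log2(intensity + 16) after quantile normalization, over 5244 probe sets, and a probe set was called at a Benjamini-Hochberg adjusted p under 0.05. Changes below are log2 differences of normalized values ± standard error, first group minus second, with n = 5 arrays a group. CTL arrays enter 5 of the 11 contrasts and ISCH arrays 3, so these contrasts are not independent of each other.

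Some features of the whole arrays ran along with the groups. The share of all signal that came from the top 1% of probe sets was 37.1% in ISCH, 37.2% in IPC_TRI and 34.6% in APC_TRI against 30.2% in CTL. The brightest probe set stood 2.27 to 3.06 times above the 20th brightest on IPC_TRI arrays and 1.95 to 2.89 times on APC_TRI arrays, against 1.5 to 1.99 on CTL arrays and 1.33 to 1.61 on APC arrays. The 3′ minus 5′ log2 signal of beta-actin, used as a sign of RNA breakdown, was -0.46 in IPC_TRI and -0.36 in APC_TRI against 0.08 in CTL (exact permutation p = 0.016 and 0.040, 0.066 and 0.124 after adjustment over 25 tests, n = 5). That of GAPDH moved the other way, to 0.13 in IPC_TRI and 0.19 in APC_TRI against -0.06 in CTL, without overlap (exact permutation p = 0.0079 each, the smallest possible, 0.066 adjusted). The log2 signal of the bacterial spikes was 12.0 in ISCH against 10.8 in CTL (exact permutation p = 0.016, 0.066 adjusted). No flag for saturated spots came with the values. The labelled tissue was checked against its markers: all 13 ventricular myocyte markers measured lay above the filter, with Myh6 at a median intensity of 32961 and Atp2a2 at 43433. After normalization ISCH minus CTL called 0 of the 13 higher and 5 lower (median change -0.28, 8.77% of all called). IPC_TRI minus CTL called 1 higher and 4 lower (-0.19, 16.6%), and APC_TRI minus CTL 2 higher and 3 lower (-0.25, 8.64%). As deposited their sum ran from 198673 to 271384 in CTL and from 228654 to 322678 in ISCH. All 4 atrial markers also passed the filter, with medians from 75.0 (Myl4) to 1445 (Nppa). Their sum ran from 2200 to 3750 in CTL (median 2536) and from 2711 to 13841 in APC_TRI (median 2860). APC_TRI minus CTL called 0 of the 4. Of 11 skeletal muscle markers 6 passed, among them Myh1 (median 851), Casq1 (539) and Ckm, which heart also makes, and 5 lay below, among them Tnni2 (16) and Myh2 (18.5). Fibroblast and matrix markers, 13 genes, summed to 48615 to 57705 in CTL. ISCH (79057 to 102039), IPC_TRI (61445 to 100943) and APC_TRI (61557 to 70887) lay wholly above that, while IPC (51790 to 102180) and APC (40959 to 57961) overlapped it. Dcn (median 24711) and Sparc (22005) were the brightest of them and weigh most in these sums. After normalization the median change of the 12 tested was 0.74 in ISCH minus CTL, with 7 called higher (8.77% of all probe sets called). It was -0.20 in IPC_TRI minus CTL and -0.31 in APC_TRI minus CTL, with 1 called higher in each (16.6% and 8.64% of all). The sum of 10 endothelial markers was 3114 to 3893 in APC, wholly below the 4366 to 5280 of CTL, and the other groups overlapped CTL. Selp (median 952) and Thbd (870) were the brightest of them. After normalization the median change of the 9 tested was 0.10 in APC minus CTL, with 2 called lower and 7 not called (3.66% of all called). The sum of 4 nerve and Schwann cell markers, 3 of them below the filter, was 873 to 1346 in ISCH and 751 to 1001 in APC, above the 453 to 667 of CTL. In IPC it was 620 to 1167 and overlapped CTL, with a median of 805 beside 806 in APC. Pmp22 (median 532) makes up most of this sum, the other 3 having medians of 35.0 to 48.1. The beta-actin signal and the spike signal were each tried as a covariate, and the part of the other features in the results below was not tested.

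Titin, the giant spring of the sarcomere, gave its lowest signals in APC. The 5 APC arrays read 93.4, 37.9, 29.1, 97.9 and 35.4. The CTL arrays read 111.5, 141.1, 118.0, 254.8 and 133.3, and those of ISCH 242.6, 84.2, 327.7, 295.4 and 348.1. All APC arrays thus lay below all CTL arrays, while ISCH 2 fell among the APC arrays and the other 4 ISCH arrays lay well above them. The IPC arrays read 170.6, 147.9, 55.9, 206.1 and 273.7. The IPC_TRI arrays had 315.1, 199.9, 214.3, 439.7 and 123.1, and the APC_TRI arrays 119.4, 86.2, 89.0, 172.6 and 186.4. IPC and both trigger groups overlapped CTL, and IPC overlapped APC through IPC 3. On 4 of the 5 APC arrays Ttn ranked between 5296.5 and 6840 of 8740, below the top 5244 that the filter kept by mean, so it was tested because of its signal in the other groups. No detection calls were used, the APC level was not shown to lie above background, and the sizes of its differences against APC are uncertain.

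By mean intensity the order for Ttn was APC (58.7 ± 33.9, SD, n = 5), APC_TRI (131 ± 46.7), CTL (152 ± 58.8), IPC (171 ± 79.9), IPC_TRI (258 ± 122) and ISCH (260 ± 106). Neighbours in this order overlapped, and none of the neighbouring pairs tested passed: APC minus APC_TRI had -0.92 ± 0.38 (adjusted p = 0.092), APC_TRI minus CTL -0.23 (adjusted p = 0.74), IPC minus CTL 0.13 (adjusted p = 0.96) and IPC minus IPC_TRI -0.36 (adjusted p = 0.53), with IPC_TRI against ISCH not tested. In APC minus ISCH, Ttn fell by 1.74 on the log2 scale (SE 0.38, limma adjusted p = 0.039), and it was the 1 of 13 member probe sets called there, where 0.267% of all 5244 were called. This call ended in 12 of 42 other settings, 7 of them the loss of 1 array: without APC 1, 2, 3 or 5 or ISCH 3, 4 or 5 the adjusted p ran from 0.061 (APC 1) to 0.16 (ISCH 3), at changes of -1.84 to -1.57. Without any filter its adjusted p was 0.067, and with median centring 0.053, at -1.74 and -1.73. APC minus CTL gave -1.15 ± 0.38 (adjusted p = 0.11), with no overlap between the groups, and it passed when only those groups entered the fit (adjusted p = 0.042) or with array weights (-1.22, adjusted p = 0.013). IPC minus APC gave 1.28 ± 0.38, an unadjusted p of 0.0021 that did not pass over all probe sets (adjusted p = 1.00). The F test over all 6 groups called Ttn (adjusted p = 0.0068).

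**Figure D1:**
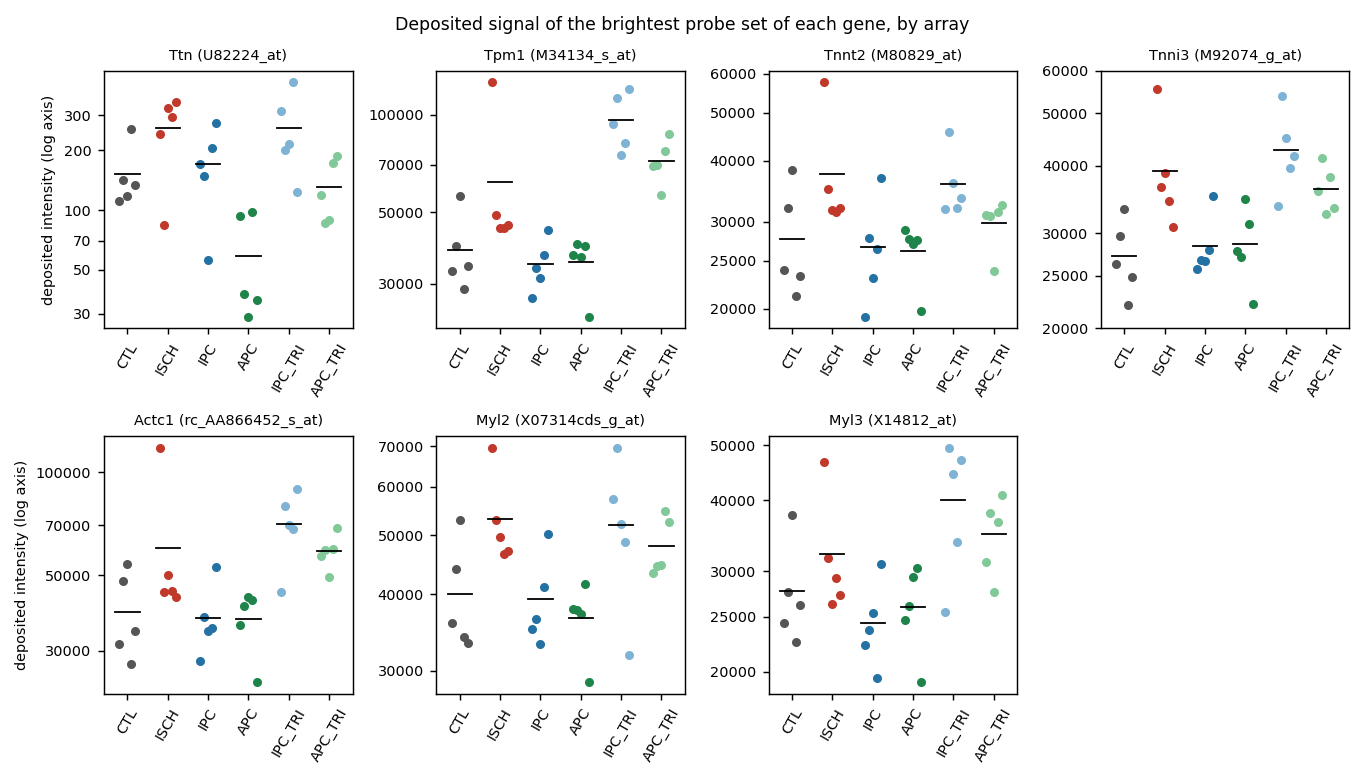
Deposited intensity (log axis, own scale in each panel) of the brightest probe set of each gene on each of the 30 arrays, with 1 point per array in replicate order and a bar at the group mean. Ttn is lowest in APC, all 5 arrays at or below 97.9 against 111.5 and above in CTL, and Tpm1 lies at 56486 or above on all trigger arrays and at or below 56262 elsewhere, except for ISCH 1 at 126052.

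Alpha-tropomyosin, the strand that covers the myosin sites on actin, was higher in both trigger groups by its brightest probe set, M34134_s_at. On CTL arrays this probe set read 32871, 39367, 56262, 29023 and 33974. The IPC_TRI arrays had 93613, 112735, 74991, 81951 and 119863, and the APC_TRI arrays 69243, 70058, 56486, 77322 and 87344. Every array of both trigger groups lay above every CTL array, although APC_TRI 3 and CTL 3 were nearly equal. The IPC arrays read 27244, 33513, 31398, 36951 and 44117, and the APC arrays 36787, 39815, 36276, 39176 and 23784. The ISCH arrays had 126052, 49005, 44557, 44643 and 45752. In these 3 groups ISCH 1 alone reached the signal of the trigger groups.

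M34134_s_at rose by 0.44 ± 0.10 in IPC_TRI minus CTL (limma adjusted p = 0.0037) and by 0.38 ± 0.10 in APC_TRI minus CTL (adjusted p = 0.016). It was lower in IPC than in IPC_TRI (-0.59 ± 0.10, adjusted p = 8.7e-05) and lower in APC than in APC_TRI (-0.44 ± 0.10, adjusted p = 0.0022), and in none of the 4 contrasts did the groups overlap. The size depended on the scaling: with the values as deposited the same contrasts gave 1.35, 0.94, -1.48 and -1.04, each called. Quantile normalization gives every array the same values at the top, so a probe set near rank 1 has little room to rise. Read as a rank among the 8740 non-control probe sets of its array, M34134_s_at was at 1 to 3 on the 10 trigger arrays, at 7 to 12 in CTL, 10 to 18 in IPC, 7 to 20 in APC and 3 to 17 in ISCH, the 3 being ISCH 1. The APC_TRI call ended without CTL 4 (0.35, adjusted p = 0.051) and with the beta-actin ratio as a covariate (0.33, adjusted p = 0.082).

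No other probe set of Tpm1 was called in these 4 contrasts, and they disagreed in direction. X02412_at gave 0.07 ± 0.12 in IPC_TRI minus CTL and 0.00 in APC_TRI minus CTL. M15474cds_s_at gave -0.56 ± 0.23 (adjusted p = 0.093) and -0.25, none of them called. The dim M60666_s_at had values like those of M34134_s_at in 3 contrasts and missed the threshold: 0.41 in IPC_TRI minus CTL (adjusted p = 0.20), 0.54 in APC_TRI minus CTL (0.12) and -0.42 in APC minus APC_TRI (0.19), with 0.11 in IPC minus IPC_TRI (0.76). Over the 30 arrays the normalized values of X02412_at, M15474cds_s_at and M60666_s_at correlated with those of M34134_s_at at r = -0.16, -0.54 and 0.01, as a description. M15474cds_s_at read 7616 on IPC_TRI 5 against 25355 to 35618 on the other 4 arrays of that group. The probe set below the filter, rc_AI144767_s_at, ranged from 5.5 to 223.8, the highest again on IPC_TRI 5. With the mean of the 4 tested probe sets in place of 1, all 4 calls ended, at 0.09, 0.17, 0.04 and -0.16, and the IPC minus IPC_TRI value of 0.04 had turned its sign. The suffix s marks probes that can match more than 1 transcript, and alpha-tropomyosin is made in many spliced forms, so these probe sets may read different messages.

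**Figure D2:**
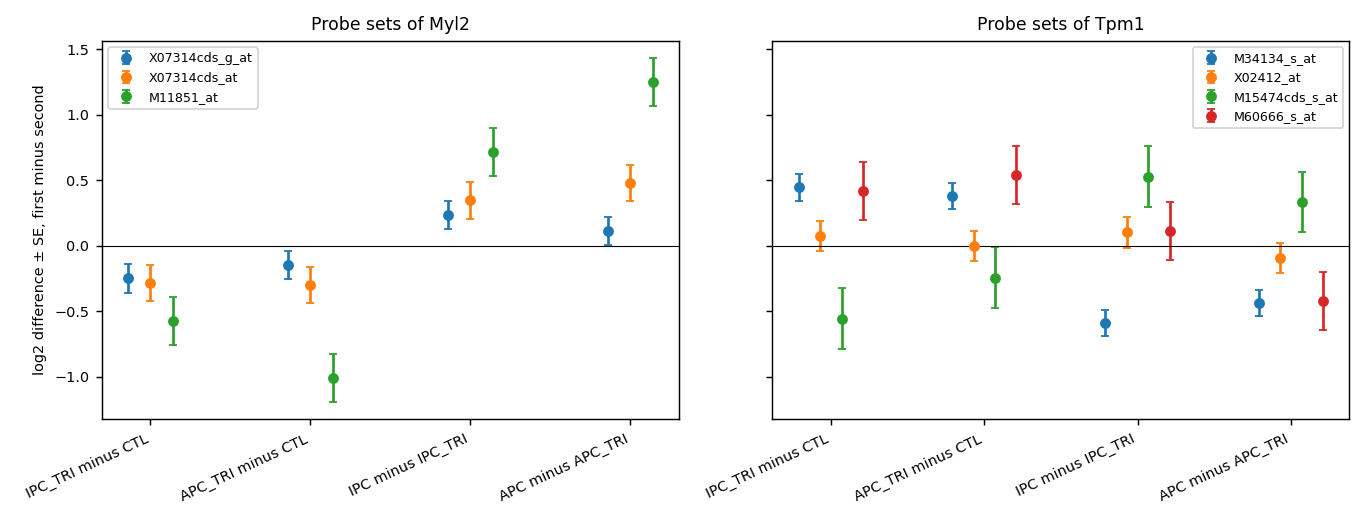
Log2 difference ± SE (n = 5 arrays a group) of each tested probe set of Myl2 and of Tpm1 in the 4 contrasts with a trigger group. The 3 probe sets of Myl2 lie on the same side of 0 in each contrast and differ in size, while of the 4 of Tpm1 M34134_s_at and M15474cds_s_at lie on opposite sides.

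No probe set of a cardiac troponin was called in any contrast after quantile normalization. Tnnt2, which ties the troponin complex to tropomyosin, ran from 19272 to 57664 over the arrays, the lowest on IPC 1 and the highest on ISCH 1. Its changes in the 11 contrasts lay between -0.13 and 0.14, with adjusted p from 0.50 upwards. In ISCH minus CTL the 95% interval of its difference was -0.20 to 0.24. The inhibitory subunit Tnni3, by its probe set M92074_g_at, had 26342, 29594, 33227, 22095 and 24911 in CTL against 33672, 53836, 45071, 39681 and 41610 in IPC_TRI, with no overlap on the deposited scale. After quantile normalization the groups overlapped and the difference was 0.22 ± 0.10 (adjusted p = 0.12). As deposited it was 0.65 (adjusted p = 0.0060), and by cyclic loess 0.42 (adjusted p = 0.023). Its second probe set, M92074_at, gave 0.07 by quantile normalization and 0.29 as deposited (adjusted p = 0.69 and 0.13). In IPC minus IPC_TRI M92074_g_at had -0.12 after quantile normalization (limma adjusted p = 0.41). As deposited it had -0.58 (adjusted p = 0.0086) and by cyclic loess -0.37 (adjusted p = 0.031).

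Cardiac actin, the backbone of the thin filament, was called in no contrast after quantile normalization, and in IPC minus IPC_TRI with each of the other 3 scalings. Actc1 read 31379, 48227, 53739, 27440 and 34230 in CTL. It read 44585, 79637, 70126, 68343 and 89296 in IPC_TRI, where the lowest array overlapped CTL, and 49252 to 68862 in APC_TRI. On the quantile scale IPC_TRI minus CTL was 0.07 ± 0.12 (adjusted p = 0.69). As deposited it was 0.86 (adjusted p = 0.015), and IPC minus IPC_TRI was -0.90 (adjusted p = 0.0074), which loess and median centring gave as -0.65 and -0.64 (adjusted p = 0.026 and 0.047). In ranks Actc1 held places 4 to 16 in IPC_TRI, 5 to 7 in APC_TRI, 3 to 16 in CTL and 4 to 17 in APC, so the ranks of all these groups overlapped. APC minus APC_TRI was called for Actc1 as deposited (-0.68, limma adjusted p = 0.043). The 4 probe sets shared with Acta2, smooth muscle actin, disagreed: in IPC minus IPC_TRI X80130cds_f_at and X80130cds_i_at had -0.29 each (adjusted p = 0.023 and 0.010) and rc_AI104567_g_at had 0.30 (adjusted p = 0.027). In APC minus APC_TRI they had -0.37, -0.16 and 0.16 in the same order (limma adjusted p = 0.0052, 0.17 and 0.25). X80130cds_i_at was the brightest probe set on 9 of 10 trigger arrays. Actins are near-identical in their coding sequence, so which of them such probes read is uncertain.

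The regulatory light chain of the ventricle, Myl2, was lower in the trigger groups by its probe set M11851_at, opposite to M34134_s_at of Tpm1. CTL arrays read 18727, 15193, 16387, 16148 and 14852. The APC_TRI arrays read 8304, 8338, 10362, 9644 and 10492, all below every CTL array. The IPC_TRI arrays read 9603, 14414, 11341, 14143 and 16248, of which the last lay within CTL. The APC arrays had 18718, 15472, 27795, 26185 and 17978, and the IPC arrays 19121, 20887, 22811, 17821 and 17435. In ISCH the values were 12984, 24475, 23017, 25879 and 21206, with ISCH 1 the lowest. Each preconditioning group lay above its own trigger group in the deposited values, without overlap. After normalization APC and APC_TRI stayed apart, while IPC reached down to 14.11 and IPC_TRI up to 14.16.

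M11851_at fell by 1.01 in APC_TRI minus CTL (SE 0.18, limma adjusted p = 8.6e-04) and by 0.57 in IPC_TRI minus CTL (SE 0.18, adjusted p = 0.031). It was higher in APC than in APC_TRI by 1.25 ± 0.18 (adjusted p = 9.8e-06) and higher in IPC than in IPC_TRI by 0.71 ± 0.18 (adjusted p = 0.0056). A test of whether the IPC and APC changes differ gave -0.54 ± 0.26, which did not pass (unadjusted p = 0.046, adjusted p = 0.58), and 0 of 13 member probe sets passed that test with limma, 1 at an unadjusted p under 0.05. In rank M11851_at was at 136 to 195 on APC_TRI arrays and 74 to 146 on IPC_TRI arrays, against 56 to 80 in CTL, 32 to 91 in APC and 42 to 77 in IPC. The APC_TRI minus CTL and APC minus APC_TRI calls stood in all 43 other settings, with ranges of -1.06 to -0.79 and 1.13 to 1.38. The IPC minus IPC_TRI call ended in 1, with the beta-actin ratio as a covariate (0.70, limma adjusted p = 0.11). The IPC_TRI minus CTL call ended in 10, among them the loss of CTL 1 (-0.51), CTL 4 (-0.57), IPC_TRI 1 (-0.49) or IPC_TRI 3 (-0.50), and the values as deposited (-0.33, adjusted p = 0.20).

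The other probe sets of Myl2 pointed the same way on the normalized scale and were smaller. X07314cds_at read 37206, 33505, 35663, 38160 and 29193 in APC against 30797, 32301, 31397, 34447 and 36073 in APC_TRI, and APC minus APC_TRI was 0.48 ± 0.14 (adjusted p = 0.016). The normalized groups did not overlap, yet the deposited values did, and as deposited the difference was 0.07 (adjusted p = 0.76). The call also ended with median centring (0.17, limma adjusted p = 0.52) and with loess (0.21, adjusted p = 0.19). It ended as well with the beta-actin ratio as a covariate (0.40, adjusted p = 0.091) and without APC 5 (0.41, adjusted p = 0.061). The brightest, X07314cds_g_at, gave -0.15 in APC_TRI minus CTL and -0.25 in IPC_TRI minus CTL (adjusted p = 0.40 and 0.10) after normalization, and 0.28 and 0.35 as deposited. With the mean of the 3 probe sets Myl2 was called in the 4 contrasts. The changes were -0.37 in IPC_TRI minus CTL, -0.49 in APC_TRI minus CTL, 0.43 in IPC minus IPC_TRI and 0.61 in APC minus APC_TRI. X07314cds_g_at and X07314cds_at correlated at r = 0.74 over the arrays, X07314cds_g_at and M11851_at at 0.22. The essential light chain Myl3 was not called in any contrast, with changes of -0.26 to 0.10. As deposited its IPC minus IPC_TRI difference was -0.69 (adjusted p = 0.0085), with 25464 to 49506 in IPC_TRI against 19518 to 30906 in IPC.

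**Figure D3:**
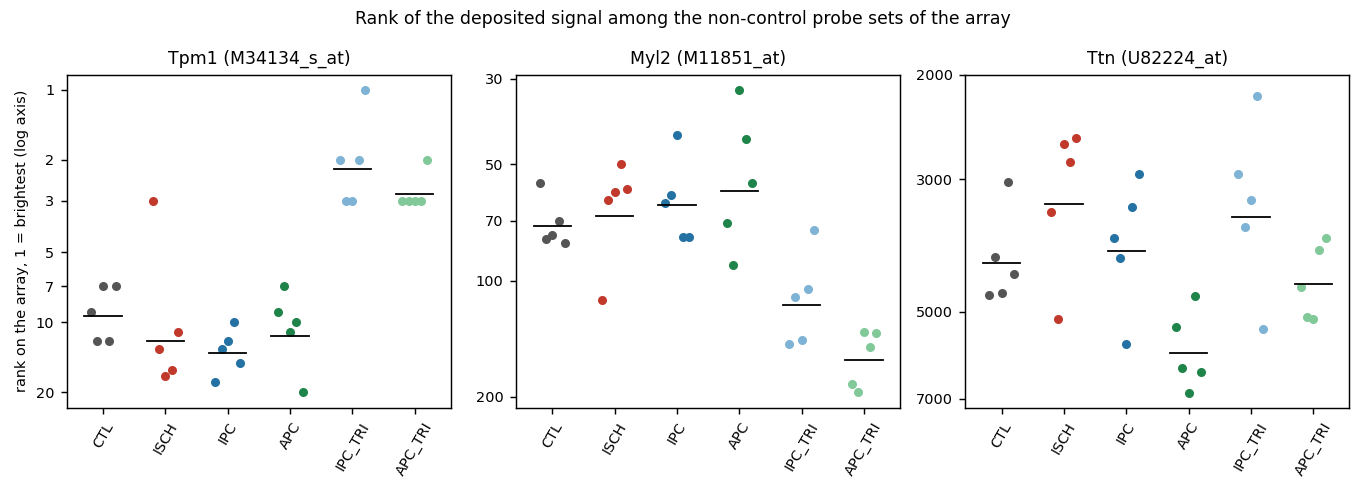
Rank of the deposited signal among the 8740 non-control probe sets of each array (log axis, brightest at the top), with 1 point per array and a bar at the group mean, for Tpm1, Myl2 and Ttn. M34134_s_at holds ranks 1 to 3 on all trigger arrays, M11851_at ranks 136 to 195 in APC_TRI, and Ttn ranks 4707 and lower in APC.

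Counted over contrasts, ischemia alone called none of the 13 member probe sets against CTL by limma, where 8.77% of all probe sets were called, and 2 had an unadjusted p under 0.05. IPC minus CTL and APC minus CTL also called 0 of 13, with 1 each at an unadjusted p under 0.05, beside 3.89% and 3.66% of all. IPC_TRI minus CTL called 1 higher and 1 lower, against 16.6% of all, and APC_TRI minus CTL called 1 higher and 1 lower, against 8.64%. IPC minus IPC_TRI called 2, with 23.4% of all probe sets called, and APC minus APC_TRI called 3, with 17.7%. These counts, 2 or 3 of 13, were near the background shares of the same contrasts. IPC minus ISCH called 0 (0.172% of all, 0 at an unadjusted p under 0.05), IPC minus APC 0 (0% of all, 2 at an unadjusted p under 0.05) and IPC_TRI minus APC_TRI 0 (0.439% of all, 1 at an unadjusted p under 0.05). The F test called 4 of 13, M11851_at and X07314cds_at of Myl2, M34134_s_at of Tpm1, and Ttn, against 31.6% of all.

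**Figure D4:**
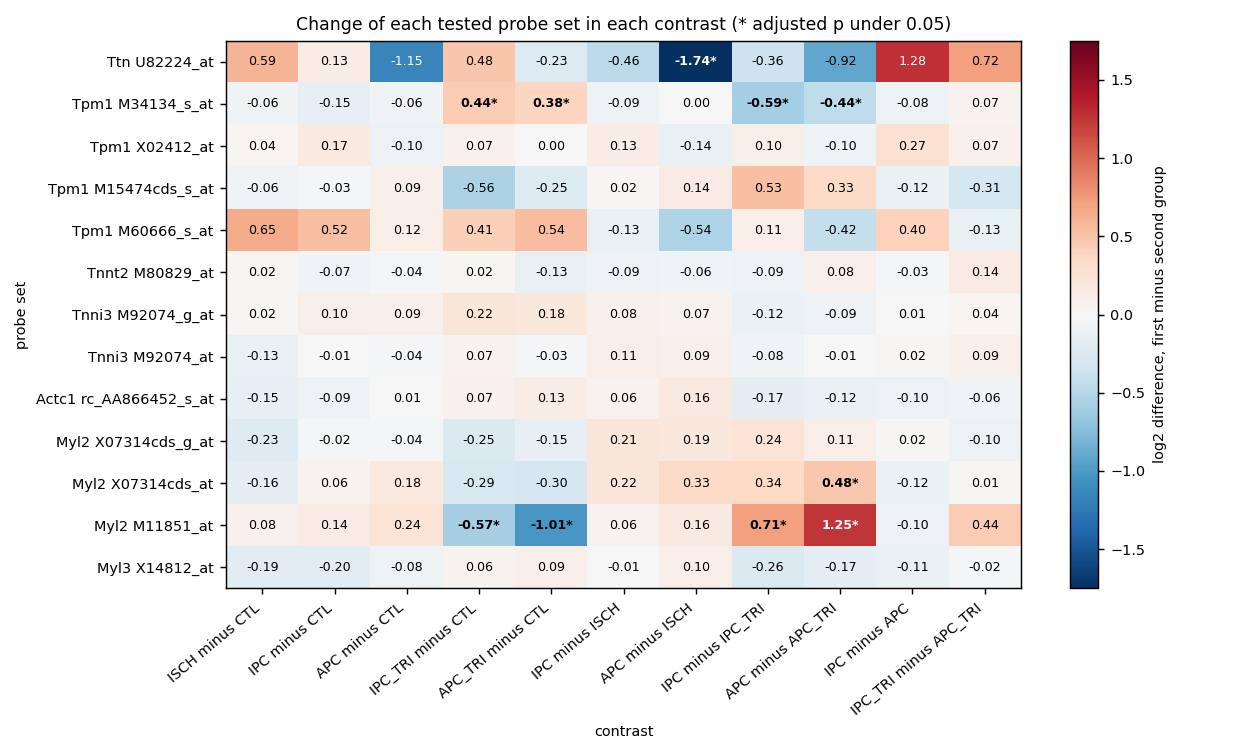
Log2 difference of quantile-normalized values, first minus second group, for the 13 tested probe sets (rows) in the 11 contrasts (columns), with an asterisk where the limma adjusted p was under 0.05. The calls lie in the 4 contrasts with 1 trigger group and, for Ttn, in APC minus ISCH.

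The direction of the group as a whole depended on how the arrays were scaled. In ISCH minus CTL the median change of the 7 genes was -0.06 after quantile normalization, 0.29 by cyclic loess, 0.41 with median centring and 0.51 as deposited. In IPC_TRI minus CTL the same scalings gave 0.07, 0.42, 0.44 and 0.65, and in APC_TRI minus CTL 0.09, 0.18, 0.28 and 0.34. APC minus ISCH turned from 0.07 to -0.32, -0.39 and -0.53, and IPC minus ISCH ran from -0.01 to -0.30, -0.34 and -0.48. In ISCH minus CTL the 100 brightest probe sets shifted between scalings in the same sense and by less, from -0.06 by quantile normalization to 0.29 as deposited. On the quantile scale their medians had the opposite sign to the members in IPC_TRI minus CTL (-0.10 against 0.07) and APC_TRI minus CTL (-0.05 against 0.09). Median centring also moved the median of all tested probe sets, to -0.19 in IPC_TRI minus CTL and 0.11 in APC minus ISCH. The contrasts IPC minus CTL and APC minus CTL differed little, from -0.07 to 0.01 and from -0.12 to -0.04. Quantile normalization also shrank the spread within groups for several probe sets, from an SD of 0.38 to 0.14 for M34134_s_at and from 0.40 to 0.17 for Actc1. It did not for Ttn (0.63 on both scales) or for M60666_s_at of Tpm1 (0.33 to 0.34). Of the Myl2 probe sets, the SD rose for M11851_at (0.28 to 0.30) and X07314cds_at (0.19 to 0.22) and fell for X07314cds_g_at (0.27 to 0.15). As deposited, the ISCH values of Tnni3 (0.51, adjusted p = 0.036) and of the dim Tpm1 probe set M60666_s_at (0.71, adjusted p = 0.036) passed against CTL, and these 2 were the only member probe sets to do so.

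**Figure D5:**
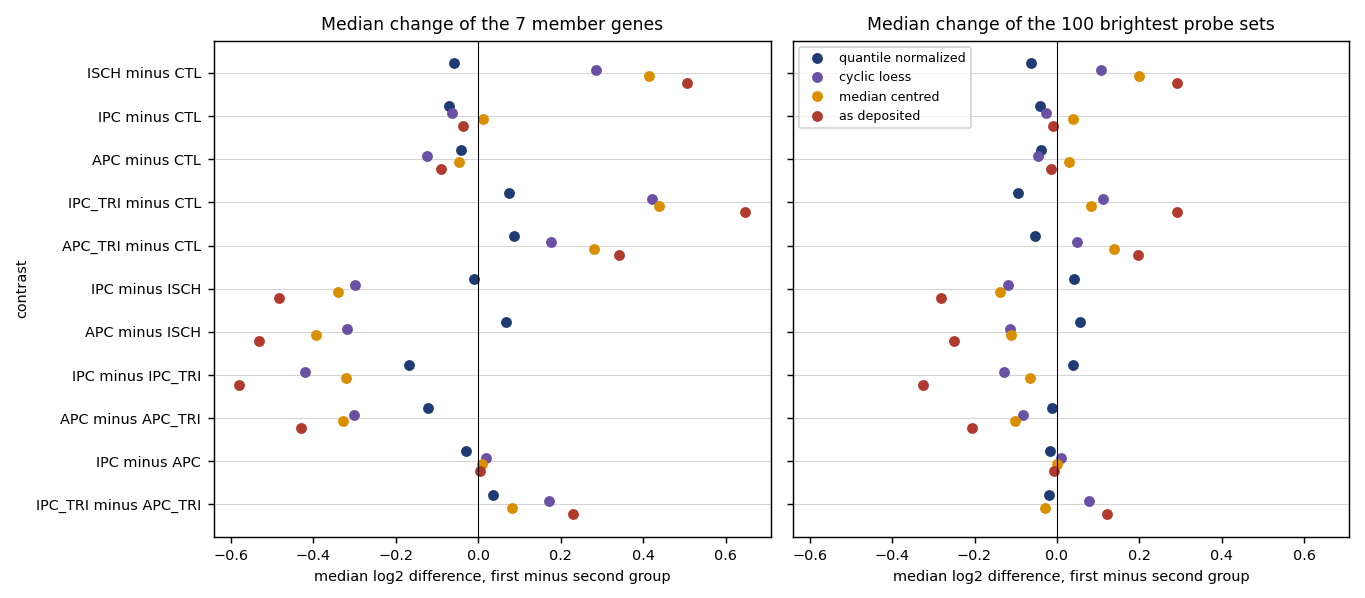
Median log2 difference in each of the 11 contrasts under 4 scalings, for the 7 member genes by their brightest probe set (left) and for the 100 brightest probe sets (right). The quantile-normalized medians stay between -0.17 and 0.09, and the medians as deposited run from -0.58 to 0.65 for the members.

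Within ISCH the first array stood high as deposited for several of these genes, and its bright end was high as a whole. The 20th brightest probe set read 71217 on ISCH 1 against 40600 to 44006 on the other 4. The top 1% of probe sets held 44.3% of its signal against 33.6% to 36.1%. By rank Tnnt2 stayed at 26 to 36 and Tnni3 M92074_g_at at 27 to 35 over the ISCH arrays. ISCH 1 read 126052 for Tpm1 M34134_s_at, 118161 for Actc1, 57664 for Tnnt2 and 55382 for Tnni3 M92074_g_at, against highest values of 49005, 50074, 35082 and 38703 on the other 4 ISCH arrays. For Myl2 M11851_at it was the lowest instead. With ISCH 1 and IPC_TRI 5 both left out, the counts of calls were 2 in IPC_TRI minus CTL and 1 in APC minus ISCH, as before, and 1 in ISCH minus CTL.

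Other genes of the sarcomere were read from a list of 59, of which 31 were on the array and 29 tested. ISCH minus CTL called 4 lower and 0 higher, where 8.77% of all probe sets were called. These were the heavy chain gene Myh6 (-0.42 ± 0.11), the intermediate filament gene Des (-0.52 ± 0.14), the stress-responsive titin-binding gene Ankrd1 (-0.34 ± 0.10) and Tmod1, which caps the slow-growing end of the thin filament (-0.58 ± 0.19), with adjusted p of 0.012, 0.012, 0.021 and 0.049. Of these 4, Tmod1 was also called with the 3 other scalings (-0.75 to -0.57) and Des with loess (-0.47), while Ankrd1 was not (-0.26 to -0.10) and Myh6 turned to 0.08 as deposited. APC minus ISCH and IPC minus ISCH called 0 of 29, and APC minus CTL 0, while IPC minus CTL called 1 lower (3.89% of all). IPC_TRI minus CTL called 4 higher and 5 lower of the 29 (16.6% of all), and APC_TRI minus CTL 1 higher and 1 lower (8.64%). IPC minus IPC_TRI called 4 higher and 4 lower (23.4%), and APC minus APC_TRI 3 higher and 2 lower (17.7%). In ISCH minus CTL 1 was called lower as deposited and with median centring, and 1 higher and 2 lower with loess. In IPC_TRI minus CTL 5 were called higher and 2 lower as deposited and with loess, and 0 higher and 3 lower with median centring. The median change of the 29 in ISCH minus CTL was -0.23 after quantile normalization, beside -0.01 over all probe sets tested, and -0.17 with median centring, -0.13 with loess and -0.07 as deposited. In APC minus ISCH it was 0.19 beside 0.02, and 0.12 to 0.26 with the other scalings.

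The genes whose normalized values most resembled each member over the 30 arrays, among 3154 genes, are given as a description. For Tpm1 they were Gnai2 (Pearson r = 0.95), Ppp2r1a (0.92) and Cox8a (0.90). For Myl2, by X07314cds_g_at, they were Hspa4 (0.86), Ndufs4 (0.84) and Jtb (0.83). Myl3 was most like Rab3b (0.83), Ckm (0.82) and Pdlim1 (0.82), and Actc1 like Suclg1 (0.72), Ckm (0.72) and Rbpms (0.69). Ttn was less like any gene, with Rack1 (0.65), Cav1 (0.56) and Syt17 (0.52), and so were Tnni3 (Eif2b4, 0.63, Bloc1s2, 0.62, and Gabrg1, 0.61) and Tnnt2 (Kars1, 0.55, Dbnl, 0.55, and Hist1h2ao, 0.55). All points share the normalization of their array, and the arrays differ by group. Within the members, Actc1 and Myl3 correlated at 0.64 after normalization and 0.92 as deposited, Actc1 with Tpm1 at 0.57 and 0.92, and Ttn with Actc1 at -0.23 and 0.33.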

How the data were processed

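Groups follow the treatment each array's label gives. The authors deposited 1 linear intensity for each probe set on each array. Trimmed of 2% at either end, the mean of an array's deposited intensity values was 500.8 to 501.0, while the medians ran from 114.6 to 189.2. They had thus been scaled and not quantile normalized, with software not given in the sources used here. The 59 control probe sets were kept out of normalization and tests.

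After log2(intensity + 16) and quantile normalization, probe sets in the lowest 40% by mean were dropped. The limma package (3.58.1, R 4.3.3) fitted group means with a trend of variance on signal, and gave 11 contrasts, an F test and a test of the IPC against the APC change. The fit was tested on simulated data. The brightest probe set stood for a gene. Array quality was set against CTL by exact permutation (2-sided, smallest possible p 0.0079). Values on every array are given for members called anywhere and, chosen after their values were seen, for Tnni3 and Actc1. Other sarcomere genes are named where called in ISCH minus CTL or against ISCH, at most 8 a contrast. Outliers were taken at Dixon's critical value of 0.710. Python 3.11.15 made the tables and figures.

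The members, lists and settings were chosen with earlier results of these data known. Other settings were the deposited scale, median centring, cyclic loess, pseudocounts of 1 and 64, no filter or 60% dropped, a fit of only the contrast's groups, array weights, IPC_TRI 5 and ISCH 1 left out, the beta-actin ratio or the bacterial spike signal as covariate, a replicate block, the mean of a gene's probe sets, and each array left out. Deviations of arrays with the same replicate number correlated at 0.01 on average (75 pairs), so the numbers were not taken as pairs. No arrays were identical, and their number limits the precision.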

Additional observations from a re-analysis of the deposited data

Results flagged for a closer look

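In 10 of 78 sets of 5 arrays, 13 probe sets in 6 groups, 1 array stood apart from the other 4 by more than Dixon's limit, where chance gives about 1 in 20. Values here are normalized log2 signals. ISCH 1 was low for Myl2 M11851_at at 13.61, against 14.35 to 14.56 on the other ISCH arrays. IPC_TRI 5 was low for Myl2 X07314cds_g_at at 14.86, against 15.41 to 15.53, and high for Tnni3 M92074_at at 14.65, against 14.20 to 14.33. IPC_TRI 1 was low for Tnni3 M92074_g_at at 14.83, against 15.15 to 15.26. APC_TRI 1 was low for Tpm1 by 2 probe sets, at 13.85 for M15474cds_s_at, against 14.73 to 15.01, and 7.70 for M60666_s_at, against 8.21 to 8.40. APC_TRI 3 was low for Tnnt2 at 14.54, against 14.79 to 14.81. CTL 1 was low for Tpm1 M15474cds_s_at at 14.57, against 14.92 to 15.01, and APC 2 was high for M60666_s_at at 8.14, against 7.58 to 7.72. APC_TRI 5 had 15.92 for Tpm1 M34134_s_at, where the other 4 had equal values of 15.83, since all held the same rank on their arrays. The causes were not tested.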

How the results depend on the processing

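The counts of called member probe sets and the median change of the 7 genes moved most with the scaling. As deposited, the calls numbered 2 in ISCH minus CTL (0 after quantile normalization), 4 in IPC_TRI minus CTL (2), 5 in IPC minus IPC_TRI (2) and 8 by the F test (4). With loess they numbered 1 in ISCH minus CTL and 5 in IPC minus IPC_TRI, and with median centring 1 in IPC_TRI minus CTL and 0 in APC minus ISCH (1). Medians as deposited, by median centring and by loess were 0.51, 0.41 and 0.29 in ISCH minus CTL, 0.65, 0.44 and 0.42 in IPC_TRI minus CTL, -0.48, -0.34 and -0.30 in IPC minus ISCH, -0.53, -0.39 and -0.32 in APC minus ISCH, -0.58, -0.32 and -0.42 in IPC minus IPC_TRI, and -0.43, -0.33 and -0.30 in APC minus APC_TRI. In APC_TRI minus CTL they were 0.34 as deposited and 0.28 by median centring, and in IPC_TRI minus APC_TRI 0.23 as deposited and 0.17 by loess.

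The APC minus ISCH count was 0 with no filter, with 60% dropped, with only the contrast's groups and with either covariate. ISCH minus CTL had 1 call with 60% dropped, with array weights and with IPC_TRI 5 and ISCH 1 left out. APC minus CTL had 1 call with only its groups and with array weights. IPC_TRI minus CTL had 1 call with only its groups and with either covariate. With the beta-actin ratio as covariate APC_TRI minus CTL and IPC minus IPC_TRI had 1 call each. With the mean of the Tpm1 probe sets in place of M34134_s_at, the IPC minus IPC_TRI change turned to 0.037 (adjusted p = 0.84). The replicate block left the counts at 2 in IPC_TRI minus CTL, 2 in IPC minus IPC_TRI and 3 in APC minus APC_TRI, and changed no call of a member, with Ttn in APC minus ISCH at -1.74 (adjusted p = 0.022). The causes of these moves were not tested.

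Leaving out 1 array gave 0 to 1 calls in ISCH minus CTL (1 without CTL 5, IPC 5, IPC_TRI 5 or ISCH 2, each time M60666_s_at of Tpm1), 1 to 3 in IPC_TRI minus CTL (1 without CTL 1, CTL 4 or IPC_TRI 3), 1 to 2 in APC_TRI minus CTL (1 without CTL 4), 0 to 1 in APC minus ISCH and 2 to 5 in IPC minus IPC_TRI (5 without IPC_TRI 1). The median change of the member genes in IPC_TRI minus CTL ran from 0.035 (without IPC_TRI 5) to 0.19. Over all probe sets, array weights raised the ISCH minus CTL calls from 460 to 933, and the spike signal as covariate lowered them to 157. IPC minus ISCH ran from 0 to 267 calls and APC minus ISCH from 0 to 203, IPC_TRI minus CTL from 238 to 925, APC_TRI minus CTL from 274 to 1065 and IPC minus IPC_TRI from 255 to 1336. IPC minus CTL reached 398, APC minus CTL 383, APC minus APC_TRI 614 to 1518 and IPC_TRI minus APC_TRI 0 to 93. Of 6171 recomputed values of single probe sets, 270 changed sign with no call in either setting. The deposited files hold intensities with no saturation or detection flags used here, so the precision of the brightest probe sets and of the dim Ttn is set by 5 arrays a group. Probe sets of 1 gene disagreed in part, and the causes were not tested. The cases without a value were Ttn with 60% dropped, where it was not tested, and the F test within single contrasts.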
